A study of Mus musculus with 3 samples.

Results

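The comparison of leptotene/zygotene spermatocytes (LZ) with pachytene/diplotene spermatocytes (PD) covers H3K4me3 at all 11140 promoters of the deposited table, which is every promoter in it, in 2 of the 3 libraries of the series. LZ cells are in early meiotic prophase, when chromosomes condense and begin to pair. PD cells are in mid to late prophase, with paired and then separating homologues. Both libraries were made from the testes of adult C57BL/6J mice with the same H3K4me3 antibody and micrococcal nuclease digestion, and the labels name no genotype or treatment. The third library, from elongating spermatids (ES), serves below only as a readout that took no part in grouping the promoters. Each stage has 1 library, so no value below has a replicate check and no test between stages was possible. The sources used here do not say how the stages were separated or how many animals were pooled.

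H3K4me3 is trimethylation of lysine on the tail of histone H3. It is placed at the start sites of active or poised genes by the SET1 and MLL methyltransferase complexes and read by factors that recruit the transcription machinery. In early meiotic prophase a further enzyme, PRDM9, places the same mark at recombination hotspots, mostly away from promoters. The spermatocyte genome passes from low to high transcription between these stages.

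The rows of the table carry numbered identifiers of assembled loci and no gene names. Of 11140 identifiers, 0 matched the mouse RefSeq gene table (GRCm38.p6) and 0 matched its promoter sequences. The promoters are therefore described by level, rank and identifier, and the labelled cell types could not be checked against marker genes. The promoter counts sum to 1654906 in LZ and 4826890 in PD. A level is given as counts per 1000000 (CPM) of these sums. It is a share of the counts over the listed promoters, so a gain or loss common to all of them would not be visible. Where a promoter has 0 counts, up to 3 counts are compatible with it, or 1.81 CPM for LZ and 0.622 CPM for PD, for counting error only.

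The counts were spread over more promoters in LZ than in PD. No input library was analysed, so how far background counts add to this spread was not tested. In LZ, 1586 promoters (14.2% of all) held 50% of the counts, and 4667 (41.9%) held 90%. In PD, 1184 promoters (10.6%) held 50% and 3357 (30.1%) held 90%. The 1114 promoters with the most counts held 39.0% of the counts in LZ and 47.8% in PD. The very top did not differ in this way, since the 100 highest promoters held 6.21% in LZ and 6.41% in PD. The added concentration in PD thus lay among strongly marked promoters as a broad class and not in a few extreme ones. At the lower end the levels were further apart. The 25th percentile was 8.46 CPM in LZ against 2.90 CPM in PD. The median promoter was at 33.8 CPM in LZ and 12.0 CPM in PD. At the 75th percentile the levels were 144 and 127 CPM, and at the 95th percentile they were 318 CPM in LZ and 407 CPM in PD. The order of the libraries therefore turned between the 75th and the 90th percentile, where LZ stood at 255 CPM and PD at 318 CPM.

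**Figure D1:**
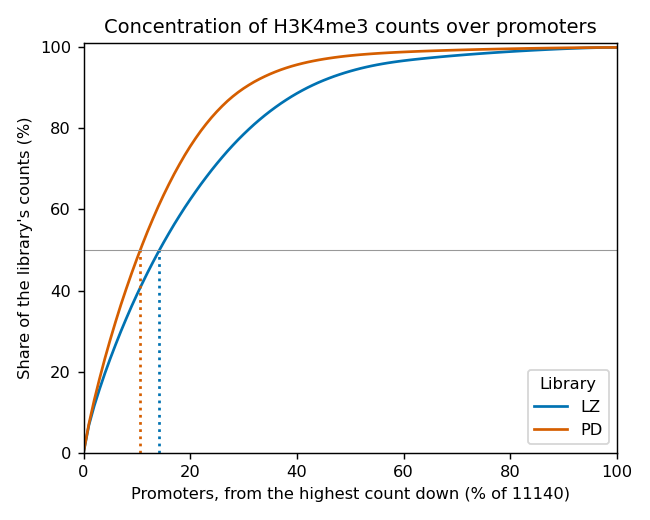
Cumulative share of each library's counts (vertical axis, %) against promoters ordered from the highest count down (horizontal axis, % of 11140). The dotted lines mark where each library reaches 50%, at 10.6% of promoters in PD and 14.2% in LZ, and the PD curve lies above the LZ curve over most of its length.

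Promoters were called higher or lower in PD where the levels differed by 2-fold or more. For this ratio 1 count was added, weighted by library size, and the library with the higher level had to hold 20 counts or more. Of 7810 promoters with enough counts, 1332 were higher in PD, which is 17.1% of them, and 3305 were lower, which is 42.3%. The other 3173 were less than 2-fold apart. These promoters between the thresholds were mostly strongly marked at both stages, at a median of 171 CPM for LZ and 189 CPM for PD. The median of the higher promoters was 29.6 CPM in LZ against 154 CPM in PD. For the lower promoters it was 64.7 CPM in LZ against 8.08 CPM in PD. The exact 95% Clopper-Pearson interval of the ratio lay wholly beyond 2-fold for 956 of the higher and 2816 of the lower promoters, so counting error left most of both sets past the threshold. Such intervals cover counting error at most, as reads amplified by PCR are not independent molecules.

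Lower promoters outnumbered higher ones at each larger fold as well. At 4-fold or more, 608 promoters (7.78% of those tested) were higher and 2237 (28.6%) lower in PD. At 8-fold the numbers were 267 and 1094, and at 16-fold they were 93 and 379. At 32-fold they were 32 and 161, and at 64-fold 4 and 98. The 98 promoters at least 64-fold lower went from a median of 428 counts in LZ to 11 in PD. The 32 promoters at least 32-fold higher went from 9 counts in LZ to 1209 in PD. LZ is the shallower library, and a promoter with few LZ counts has a less certain ratio. The low end of the levels was also higher in LZ, with the 10th percentile at 4.83 CPM against 1.45 CPM in PD. A large fold lower in PD can thus start from a weaker promoter than the same fold higher requires. The counts at these larger folds are with column sums. The interval lay wholly beyond 32-fold for 3 higher and 106 lower promoters.

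This imbalance depended on how the libraries were scaled. Column sums gave a median log2 ratio (PD to LZ) of -0.99 over all promoters, TMM factors gave -0.29, and the median-of-ratios method gave 0.15. The lower promoters were 71.3% of all called promoters under column sums. They were 48.7% under TMM, 35.6% under median of ratios and 51.7% after the 2 libraries were quantile normalized. Ratios below are with column sums and are read against the overall median of -0.99. Within-library ranks, which no scaling changes, are given beside them.

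The ratio followed the overall strength of marking. Promoters were placed in 5 equal groups (quintiles) by the mean of their log2 levels in LZ and PD, which treats both libraries alike. The median log2 ratio was -1.50 in the lowest quintile and -1.51 in the second. It was -1.93 in the third, -0.59 in the fourth and 0.35 in the highest. The highest quintile lay 1.85 above the lowest on the log2 scale. After quantile normalization, which makes the distributions of the libraries equal by construction, the difference was 0.031, so this trend is another view of the unequal spread of counts described above. In the highest quintile 71.4% of promoters had a ratio above 1, against 9.23% in the lowest. Of the 2228 promoters tested in the highest quintile, 15.7% were at least 2-fold higher and 4.89% were lower. The share of lower promoters there was far below the 42.3% over all tested promoters, while the share of higher promoters was near the 17.1% over all. Strongly marked promoters also varied least, with the 10th and 90th percentiles of the log2 ratio at -0.57 and 1.20. This narrow range is partly built into the grouping, since a promoter weak at 1 stage can hardly have a high mean.

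Promoters of middling strength varied most. In the third quintile, with medians of 65 counts in LZ and 56 in PD, the 10th and 90th percentiles of the log2 ratio were -4.07 and 2.16. Of 2222 tested promoters there, 1405 (63.2%) were at least 2-fold lower in PD, 419 (18.9%) were higher and only 398 lay between. At least 4-fold differences were counted for 1091 lower and 247 higher promoters. In the fourth quintile 918 were lower, 472 higher and 838 between. A promoter of middling mean level was therefore usually marked at one of the stages more than the other. That is partly built into the grouping, since a promoter that is strong at 1 stage and weak at the other has a middling mean. In the lowest quintile 86 of 2231 promoters had enough counts to be tested, so its median rests mostly on counts below the minimum.

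**Figure D2:**
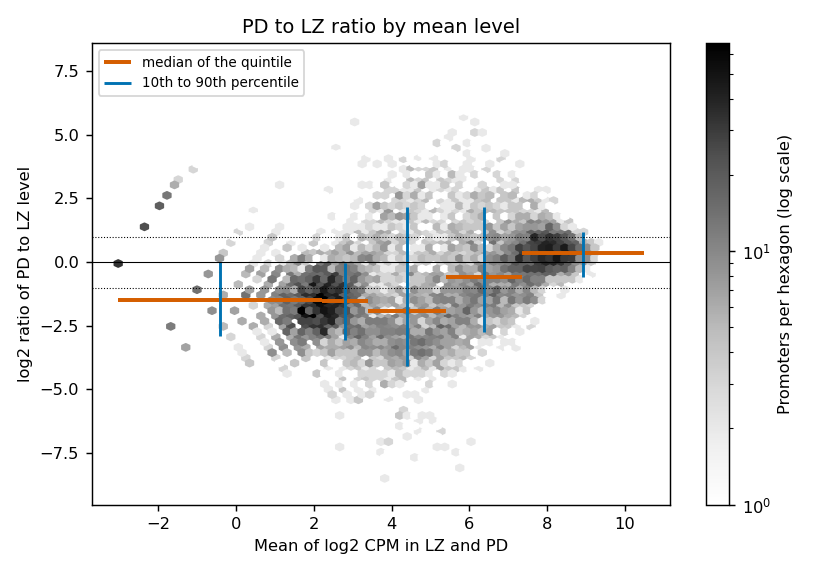
The log2 ratio of PD to LZ level (vertical axis) against the mean of the log2 CPM in both libraries (horizontal axis), with hexagons shaded by the number of promoters on a log scale. Orange bars give the median of each quintile, from -1.50 at the left to 0.35 at the right, blue bars the 10th to 90th percentile, and dotted lines the 2-fold thresholds. The points form an upper and a lower arm at middling levels and join into 1 cluster above a ratio of 1 at the right.

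Grouping by a single library shows where the differing promoters started and where they ended. Grouping in this way shifts the ratio by itself, so the counts are descriptive. By LZ level, the higher promoters were spread over all quintiles, with 235 from the lowest, 254 from the second, 416 from the third, 319 from the fourth and 108 from the highest. The lower promoters came mostly from the third quintile, with 1341, and the fourth, with 1047, while 559 came from the highest. By PD level, 608 higher promoters ended in the highest quintile of PD and 543 in the fourth. Of the lower promoters, 1383 ended in the third quintile of PD, 910 in the second and 383 in the lowest. A promoter lower in PD thus held 12 or more PD counts in most cases, and 617 were in the fourth quintile of PD. The second PD quintile spans only 12 to 26 counts, so 12 counts do not by themselves show that marking was kept.

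Ranks within each library gave the same comparison without any scaling. The Spearman rho between LZ and PD was 0.78 over the 11140 promoters and 0.65 over promoters with at least 20 counts in either library. It describes 2 libraries, within each of which the promoters share depth and digestion. When each library was cut into 10 equal groups by count (deciles), 3074 promoters (27.6%) fell in the same decile of both libraries and 7031 (63.1%) within 1 decile. The lowest and highest deciles kept the most promoters. That is partly built into the grouping, as the highest can be left only downward and the lowest only upward. Of the 1115 promoters in the highest LZ decile, 571 (51.2%) were also in the highest PD decile and 267 in the one below it. In the lowest LZ decile, 516 promoters (45.2%) were also lowest in PD. A move of 5 or more deciles was made by 231 promoters upward and 157 downward. No promoter went from the lowest LZ decile to the highest PD decile, while 6 went from the highest LZ decile to the lowest PD decile.

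**Figure D3:**
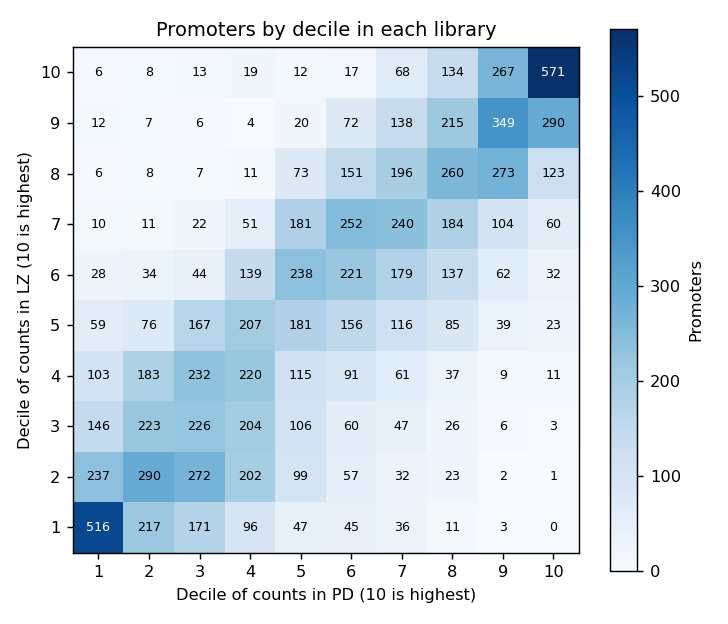
Number of promoters for each combination of LZ decile (vertical axis) and PD decile (horizontal axis), where 10 holds the highest counts. The corners on the diagonal are the fullest cells, with 516 promoters lowest in both and 571 highest in both, and the upper left corner holds 6.

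Rank moves of at least 25 percentile points were a little more often upward than downward from LZ to PD, in contrast to the fold counts with column sums. They comprised 1002 promoters (8.99%) that moved up and 794 (7.13%) that moved down. With PD thinned to the LZ total the numbers were 1040 and 912. Of the 1002 promoters, 430 began in the lowest LZ quintile, at 12 LZ counts or fewer, where few counts separate the ranks. Those that moved up went from a median of 14 counts in LZ to 276.5 in PD, where their median percentile was 66.4. Those that moved down went from 142.5 counts in LZ, at percentile 64.1, to 13 counts in PD, at percentile 23.2. By the 2-fold rule, 790 of the upward movers were also higher in PD and 744 of the downward movers also lower. In both directions 0 movers were called the other way. Rank moves and calls come from the same counts, so this overlap is no separate check of either. Moves of at least 50 points were made by 140 promoters upward and 123 downward, and these 2 sets began at different places. The upward set started near the bottom of LZ, with a median of 9 counts, and reached 413 counts in PD. The downward set started among the strongest promoters of LZ, with a median of 390 counts at percentile 88.1, and had 11 counts in PD. At 75 points or more, 3 promoters moved up and 25 moved down. Of these 25, 24 were in the highest LZ quintile, with a median of 466 counts in LZ and 6 in PD. At 75 points falls thus outnumbered rises, while moves of at least 25 or 50 points were more often upward. The 3 upward movers had a median of 7 LZ counts, where a difference of few counts changes the rank.

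Single promoters show the size of the largest differences. They are the first 2 in each direction, ranked by the bound of the 95% interval of the ratio that lies nearest to 1, so their ratios may be too extreme. At locus MSTRG.6179 the promoter counts were 13 for LZ, 2247 for PD and 1446 for ES. It moved from percentile 22.5 of LZ to percentile 97.2 of PD and stood at percentile 69.6 in ES. The promoter of locus MSTRG.8413 was alike, at 13 counts for LZ, 2126 for PD and 1019 for ES. Its level was 7.86 CPM in LZ (exact Poisson 95% interval 4.18 to 13.4) and 440 CPM in PD (422 to 460), a ratio of 56.1 (32.7 to 105). Both promoters were weak in early prophase and among the strongest later in prophase, and in spermatids both lay above the median.

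At locus MSTRG.20916 the promoter counts were 1448 for LZ, 11 for PD and 81 for ES. It went from percentile 99.9 of LZ to percentile 18.5 of PD and was at percentile 3.58 in ES. The promoter of locus MSTRG.25201 held 1992 counts for LZ, 17 for PD and 77 for ES. Its level was 1204 CPM in LZ (1151 to 1258) and 3.52 CPM in PD (2.05 to 5.64), so the LZ level was 342 times the PD level (213 to 588). It went from the top of LZ, at percentile 99.99, to percentile 30.8 of PD and percentile 3.30 of ES. Both promoters were in the highest decile of LZ and near the bottom of ES. With median-of-ratios factors, the log2 ratio moved from -8.37 to -7.21 at MSTRG.25201 and from 5.79 to 6.97 at MSTRG.8413. No scaling turned the direction at any of the 4 promoters. None could, as their ratios, picked for their size, are far larger than the shifts between the scalings.

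At the other extreme, 108 promoters had 0 counts in LZ and 56 had 0 in PD, with 33 at 0 in both. The 75 promoters with 0 in LZ and more in PD had a median of 2 PD counts, and 3 of them reached 20 counts, with 127 as the highest. Of the 23 promoters with 0 in PD and more in LZ, 1 reached 20 counts, at 21. Complete absence of counts at 1 stage together with strong marking at the other was thus rare in both directions. A count of 0 is a stricter condition than weak marking. The 10th percentile over all promoters was 8 counts in LZ and 7 in PD.

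The spermatid library, which took no part in these groupings, placed them apart. Promoters in the highest decile of both LZ and PD had a median ES percentile of 70.7, and 1 of 571 (0.175%) lay in the lowest 25% of ES. Promoters in the highest LZ decile and PD deciles 6 to 9 had a median ES percentile of 59.0, with 20 of 486 (4.12%) in the lowest 25%. The 58 promoters in the highest LZ decile and PD deciles 1 to 5 had a median of 634 counts for LZ, 17 for PD and 103 for ES. Their median ES percentile was 5.42, and 35 of 58 lay in the lowest 25% of ES (60.3%, exact 95% Clopper-Pearson interval 46.6 to 73.0). The set was mixed, as its 75th percentile in ES was 54.1 and 2 of its promoters were in the highest decile of ES. The mirror set did not look alike. The 38 promoters in the highest PD decile and LZ deciles 1 to 5 had a median of 33.5 counts for LZ, 2027 for PD and 1023 for ES. Their median ES percentile was 56.6, and 0 of 38 lay in the lowest 25% (0 to 9.25%). These intervals treat promoters as independent. As each stage has 1 library, the difference between the sets was not tested.

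**Figure D4:**
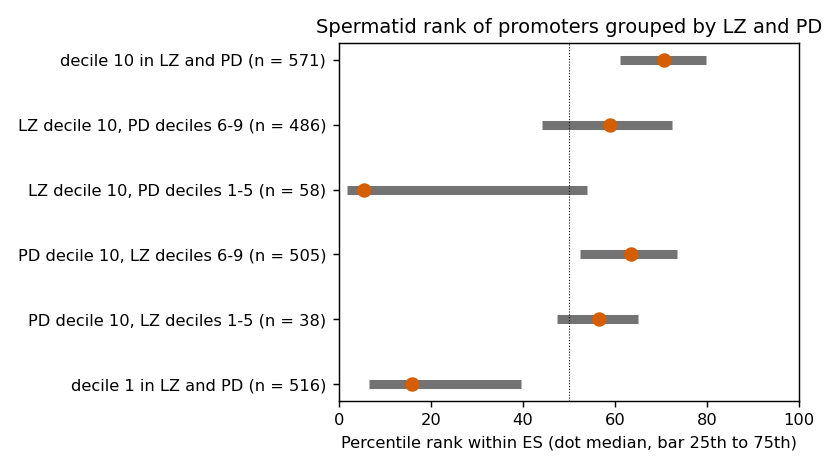
Percentile rank within the ES library (horizontal axis, %) for promoters grouped by their LZ and PD deciles, with the dot at the median and the bar from the 25th to the 75th percentile. Promoters of LZ decile 10 in PD deciles 1 to 5 have a median of 5.42, below the 15.98 of promoters in decile 1 of both, while promoters of PD decile 10 in LZ deciles 1 to 5 have a median of 56.6.

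Promoters at least 4-fold higher in PD had a median ES percentile of 39.3, those at least 4-fold lower 46.7, and those less than 2-fold apart 55.2. The last of these classes is also the most strongly marked in LZ and PD. The difference of medians in ES, higher minus lower set, was -7.35 percentile points, and -4.34 points with classes from quantile-normalized levels. The highest decile of ES held 20 of 608 promoters at least 4-fold higher in PD (3.29%, interval 2.02 to 5.03) and 333 of 2237 at least 4-fold lower (14.9%, 13.4 to 16.4). Intervals in this paragraph also treat promoters as independent. The lower set was spread widely, with its 25th and 75th percentiles of ES at 19.5 and 80.5, against 21.7 and 58.6 for the higher set. Promoters lower in PD thus included both some of the weakest and some of the strongest spermatid promoters. Within the third quintile of mean level the order of the classes was another. The median ES percentile there was 47.2 for promoters at least 4-fold lower in PD, 27.3 for those at least 4-fold higher and 22.9 for those less than 2-fold apart. In the second quintile it was 35.8, 16.2 and 15.7 in the same order. In the lowest quintile, where few promoters were tested, the order turned. The median there was 15.6 for 47 promoters at least 4-fold lower and 57.6 for 22 less than 2-fold apart. For the 11 at least 4-fold higher no median was computed. The classes lay closer together at stronger promoters. In the fourth quintile the medians were 52.7, 50.2 and 44.7. In the highest quintile they were 63.1, 64.1 and 62.6, with 20 promoters in the lower class and 52 in the higher. Of the promoters at least 4-fold lower in PD, 16.5% were in the highest ES decile in the second quintile and 8.28% in the fourth. In the highest quintile it was 4 of 20 (20%). Within the third quintile this share was also larger for the lower set than for the other classes. There, 186 of 1091 promoters at least 4-fold lower in PD were in the highest ES decile (17.0%, 14.9 to 19.4), against 4 of 247 at least 4-fold higher (1.62%, 0.443 to 4.09) and 27 of 398 less than 2-fold apart (6.78%, 4.52 to 9.72).

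The rows of the table fall into 4 blocks of rising identifier number, separated by jumps of over 1000. The blocks run from 1 to 1617, from 13213 to 26276, from 1619 to 13210 and from 26284 to 27289. The sources used here do not say what the order or the blocks stand for, and the blocks were noticed after the values were seen. The last block, of 667 promoters, stood apart from the rest in its level at both stages. It held 5.99% of the promoters but 3.44% of the counts in LZ and 3.05% in PD. Of its promoters, 7 (1.05%, interval 0.423 to 2.15) were in the highest decile of LZ and 2 (0.300%, 0.0363 to 1.08) in that of PD. Among the other 10473 promoters the shares were 10.6% in LZ and 10.6% in PD. In ES, 0 of the 667 were in the highest decile, with an upper limit of 0.552%. These limits treat the promoters of a block as independent, within 1 library per stage. The highest promoter of the last block had 622 counts in LZ and 1901 in PD, against 3578 and 4549 elsewhere. The first block, of 674 promoters, had 6.82% in the highest decile of LZ and 8.31% in that of PD.

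From LZ to PD the last block differed less from the rest than in its level. Its median log2 ratio of PD to LZ was -0.50, against -1.03 elsewhere, a difference of 0.53. Restricted to promoters with at least 20 counts in either library, the difference was 0.18. Fewer of its tested promoters were counted as higher, at 12.6%, and fewer as lower, at 31.8%, than the 17.1% and 42.3% over all. Its median percentile was 34.8 in LZ and 46.2 in PD. How far low counts account for the difference in ratio was not tested. The end of the block, where the median LZ count in windows of 50 numbers was at most 3, was set after the values were seen. Its 92 promoters, numbered 27150 and above, had a median of 1 count for LZ, 1 for PD and 84 for ES. They included 44 of the 108 promoters with 0 counts in LZ and 32 of the 56 with 0 in PD. Without them, the other 575 promoters of the block had medians of 45 counts in LZ and 75 in PD and a median log2 ratio of -0.53. The low share in the highest deciles was as marked in these 575, at 1.22% in LZ and 0.348% in PD.

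Outside the last block the calls and the upper range of ratios also varied along the numbering. In the first block 22.7% of tested promoters were higher in PD and 38.2% lower, against 17.1% and 42.3% over all. In 26 windows of 1000 identifier numbers below the last block, with 346 to 450 promoters each, the median log2 ratio lay between -1.23 and -0.81 and its 90th percentile between 0.85 and 2.13. The 90th percentile of rank ranged from 80.9 to 96.5 in LZ and from 86.2 to 93.7 in PD. Promoters with consecutive numbers shared a call little more often than promoters at large. Of 5901 such pairs, the second promoter was lower in PD in 28.2% of all pairs and in 32.4% of the pairs whose first promoter was lower. For higher promoters these shares were 11.9% and 13.0%.

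**Figure D5:**
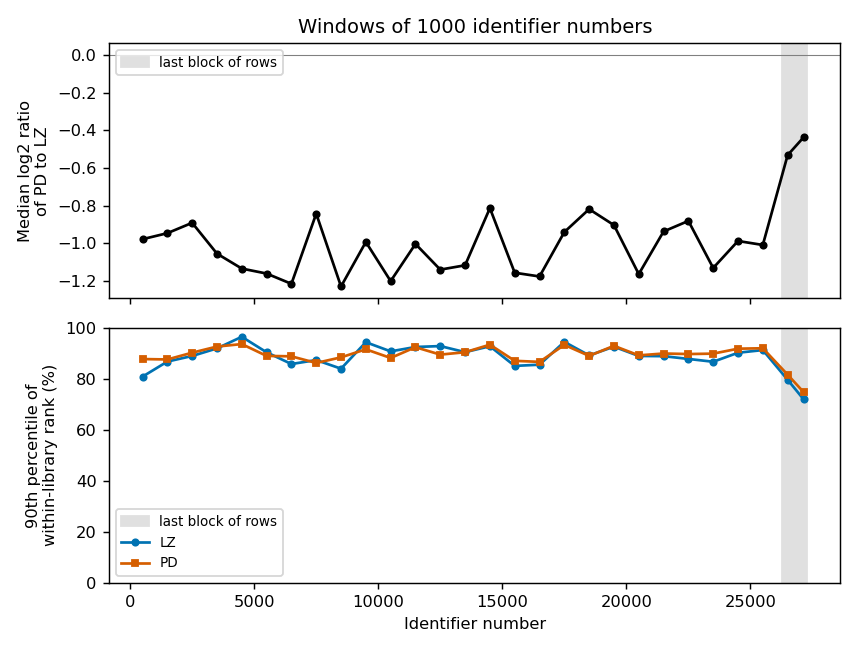
Windows of 1000 identifier numbers (horizontal axis) with the median log2 PD to LZ ratio in the upper panel and the 90th percentile of within-library rank (%) in the lower panel, for LZ as circles and PD as squares. The shaded last block of rows, from 26284 to 27289, has the highest median ratios and the lowest upper ranks, while the 26 windows before it stay between -1.23 and -0.81.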

How the data were processed

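H3K4me3 counts over promoters were analysed for LZ and PD, with ES as a separate readout, 1 library per stage. The authors deposited 1 table of raw counts, not normalized, for 11140 promoters. The submitters' processing notes name Trim Galore, STAR and mm10 but give no tool versions. The sources used here do not give the counting tool, the treatment of duplicates, the placement of the promoter window or the choice of promoters. Micrococcal nuclease has sequence preferences that can move counts between promoters, and no input library was analysed here.

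Groups came from the cell type label and columns from the description label. Levels were scaled by column sums (Python 3.11.15, numpy 2.4.6, scipy 1.17.1). Ratios had 1 count added, weighted by each total relative to the mean of the 3 libraries, and calls needed 20 counts in the library with the higher level. Ranks were mid-ranks, and equal counts shared a decile or quintile. No test was run, since no library is replicated. Factors for the alternatives came from edgeR 4.0.16 (TMM) and DESeq2 1.42.0 (median of ratios) over the 3 libraries. The ratio, call rule and intervals were checked on simulated counts. The promoters named were the first 2 in each direction by the bound of the exact interval nearest to 1. The comparison, groupings and alternatives were chosen with earlier results of these data known. Gene lists and stage markers could not be used without gene names.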

Additional observations from a re-analysis of the deposited data

How the results depend on the processing

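No paired analysis was possible because LZ and PD are single libraries, and no replicate could be left out. Promoters at least 2-fold higher in PD numbered 2668 under TMM, 3651 under median of ratios, 2012 after quantile normalization and 608 at 4-fold, against 1332 as reported. Lower promoters numbered 2021 under median of ratios, 2156 after quantile normalization and 5548 without a minimum count, against 3305. Over all promoters the median log2 ratio was -0.29 under TMM and -0.91 with 5 counts added, and it turned to 0.15 under median of ratios. In the lowest quintile of mean level it was -0.92 under TMM, -0.47 under median of ratios, -1.31 with 5 counts added and -1.90 with PD thinned to the LZ total, and in the highest it was 1.07 under TMM and 1.54 under median of ratios. Quantile normalization gave 0 in the lowest and 0.031 in the highest. By construction, TMM and median of ratios move ratios by nearly the same amount at promoters with many counts. At promoters with few counts the added count makes the shift smaller. The Spearman rho was 0.65, and the share of the highest LZ decile also highest in PD 45.0%, over promoters with at least 20 counts in either library, and the rho was 0.77 with PD thinned. The last block's median ratio exceeded that of the other promoters by 0.35 under TMM, 0.36 under median of ratios and 0.18 over promoters with at least 20 counts in either library. Quantile normalization of the quintiles, the alternatives for the last block, the calls without it and the minimum applied to either library were chosen after seeing the data. LZ, with the smallest total, limits the precision of ratios at weakly marked promoters.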
